A study of Homo sapiens with 6 samples.

Results

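The CDK-activating kinase (CAK) and TFIIH are the complexes that hold CDK7, the kinase that THZ1 binds covalently. The genes of their 10 subunits were taken by name as CDK7, CCNH, MNAT1, GTF2H1, GTF2H2, GTF2H3, GTF2H4, GTF2H5, ERCC2 and ERCC3, and all 10 were found among the 57905 genes of the count table. RNA-SEQ was performed on NALM6, a human cell line of B-cell precursor acute lymphoblastic leukemia. The cells were cultured for 24 h with either 500 nM of THZ1 or its solvent DMSO, with 3 libraries per treatment. The labels do not say whether the 3 libraries came from separate cultures, so p-values measure only the spread between these libraries, which may be technical.

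CAK is a trimer of the kinase CDK7, its cyclin CCNH and the assembly factor MNAT1, and it phosphorylates the activation loop of cell cycle CDKs. Docked on TFIIH, it phosphorylates the C-terminal domain of RNA polymerase II while TFIIH opens the promoter DNA. The core of TFIIH holds the translocase ERCC3 (XPB) and a scaffold of GTF2H proteins, the helicase ERCC2 (XPD) joins the core to CAK, and the same core opens DNA around lesions in nucleotide excision repair. THZ1 reacts with a cysteine of CDK7 outside the kinase domain. In the transcript ENST00000256443.8, whose coding sequence has 346 codons, this cysteine is encoded by codon 312, TGT, the last cysteine codon of the gene. The stretch from codon 304 to codon 320 is shown because it holds the site to which the drug binds, in capitals, and it was read from the GENCODE 44 transcripts on GRCh37:
CDK7: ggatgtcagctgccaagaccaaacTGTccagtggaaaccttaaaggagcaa

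Counts on genes summed to 11015480 to 11164840 per DMSO-treated library, and each THZ1-treated library was shallower, at 7876402 to 8314306. Of the precursor B cell markers CD79A, CD79B, PAX5, VPREB1, DNTT, CD22 and EBF1, all 7 were detected, with a sum of 2135 to 2141 CPM (the count of a gene over all counts on genes, scaled to 1000000) under DMSO and 858 to 892 CPM under THZ1. The 5 T cell markers with counted rows, CD8A at 0 in all libraries, summed to at most 1.40 CPM, the 5 myeloid markers to at most 16.8 CPM, the 3 erythroid markers to at most 3.49 CPM and the 4 stromal markers to at most 18.9 CPM in any library. All 4 of these sums were higher in every THZ1-treated library, although single markers went the other way. LYZ (−0.83) and PDGFRB (−1.03) were called lower on the log2 scale, while CD14, CSF1R, ALAS2 and COL1A1 were higher, and of the B cell markers CD79A was higher (1.33) and the other 6 lower. The part of these markers in the results below was not tested.

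Of the 10 subunit genes, 9 passed the filter on low counts, and THZ1 lowered the reads of 8 of these (adjusted p below 0.05 by edgeR over the 16622 genes tested). Of all genes tested, 84.5% were called, 41.1% lower and 43.5% higher, and of the protein-coding genes tested 47.6% were called lower. ERCC2 was the subunit gene tested that was not called. In the 8 called genes the treatments did not overlap, as in 84.7% of all genes tested. The median log2 fold change over the 9 subunit genes was −0.84, against 0.03 over all genes tested and −0.20 over protein-coding genes. The fold changes ran from −1.14 for GTF2H5 to 0.02 for ERCC2, so the subunits of the same complexes did not share a common fold change. The values below are CPM after TMM scaling unless another scale is named. CPM values give the share of a transcript among the RNA sequenced. They measure neither the amount of a transcript per cell nor the number of cells in the culture.

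**Figure D1:**
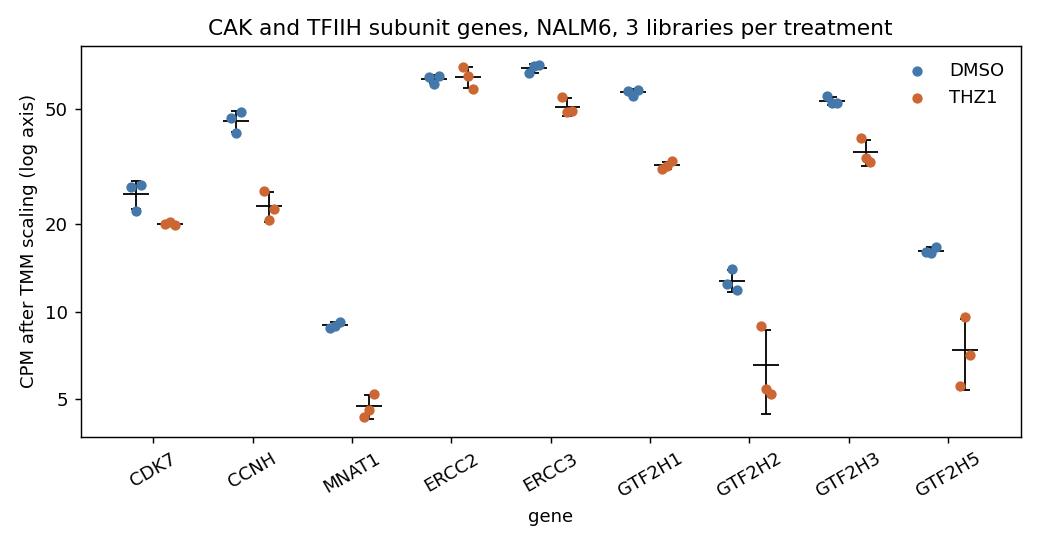
CPM after TMM scaling (log axis) of the 9 subunit genes tested, with a point for each of the 3 DMSO-treated and the 3 THZ1-treated libraries, a horizontal line at the mean and error bars of 1 SD. The points of the treatments overlap for ERCC2 and for no other gene drawn.

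CDK7 lies on chromosome 5 from 68530622 to 68573257 on the plus strand of GRCh37. The DMSO-treated libraries had 26.9, 22.2 and 27.3 CPM of CDK7, and the THZ1-treated libraries had 19.99, 20.3 and 19.9 CPM. The THZ1-treated libraries lay close together, and the lowest DMSO-treated library, replicate 2, was only slightly above them. CDK7 stood at 78.9% of the DMSO level, −0.34 ± 0.12 on the log2 scale (± SE here and for the other subunits), and was called lower by edgeR (adjusted p = 0.00812). The call was lost with upper quartile factors (adjusted p = 0.236 by edgeR), with DESeq2 (adjusted p = 0.0681) and where each library had to hold 10 counts of a gene (adjusted p = 0.0987 by edgeR).

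CCNH, the cyclin that CDK7 needs for activity, lies on chromosome 5 from 86614233 to 86708747 on the minus strand. It had 46.5, 41.3 and 48.7 CPM in the DMSO-treated libraries and 26.0, 20.8 and 22.6 CPM in the THZ1-treated libraries. Every THZ1-treated library was well below every DMSO-treated library, with a change of −0.97 ± 0.11 on the log2 scale (edgeR adjusted p = 7.1e-10). RASA1 overlaps CCNH by 73516 bases on the opposite strand and was also lower under THZ1 (log2 fold change −0.66), and since the strand setting of the counting is not given in the sources used here, some of their reads could be shared.

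MNAT1, the RING finger protein that stabilises CDK7 with CCNH and anchors CAK to ERCC2, spans 235224 bases on chromosome 14 from 61201460 to 61436683. It was the least abundant of the CAK genes, with 8.76, 8.93 and 9.20 CPM in the DMSO-treated libraries and 4.34, 4.57 and 5.21 CPM in the THZ1-treated libraries. The groups did not overlap, and MNAT1 changed by −0.93 ± 0.19 on the log2 scale (edgeR adjusted p = 4.7e-05). With limma on the FPKM values the change was larger, at −1.44 with a pseudocount of 1 and −1.78 with 0.1. MNAT1 had only 33 to 39 counts in the THZ1-treated libraries, and its standard error was the largest of the 9 genes.

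The ratio of the counts of a gene pair within a library does not depend on how the libraries are scaled. The log2 ratio of CDK7 to CCNH counts was −0.79, −0.90 and −0.83 under DMSO and −0.38, −0.03 and −0.18 under THZ1. It was higher in every THZ1-treated library, with a difference of 0.64 between the means. The log2 ratio of CDK7 to MNAT1 was higher too, from 1.501 ± 0.163 to 2.10 ± 0.144 (SD, n = 3 each), whereas the ratio of CCNH to MNAT1, 2.34 ± 0.113 under DMSO and 2.29 ± 0.254 under THZ1, overlapped between the treatments. Within CAK, the kinase gene thus gained reads relative to each of its partners, whose counts kept their ratio to each other within the spread. In FPKM the 2 partners did not keep it: the log2 ratio to ERCC3 changed by −0.64 for CCNH and by −1.21 for MNAT1. Unlike ratios of counts, ratios of FPKM may depend on the normalization. The sorted FPKM values are nearly the same among the libraries of a treatment, by a step that is not given. These ratios are given as a description, since an exact permutation test on 3 libraries against 3 cannot reach a p below 0.1.

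ERCC2 encodes the helicase XPD, which opens damaged DNA in repair and bridges core and CAK. It lies on chromosome 19 from 45853095 to 45874176 on the minus strand. ERCC2 had 64.6, 61.2 and 65.1 CPM under DMSO and 69.7, 64.9 and 58.8 CPM under THZ1. The groups overlapped, and the THZ1-treated libraries held both the highest and the lowest value. The log2 fold change was 0.02, with a 95% interval from −0.15 to 0.19 (adjusted p = 0.831 by edgeR). The scaling moved ERCC2 across the threshold in either direction: with upper quartile factors it was called higher (log2 fold change 0.21, adjusted p = 0.0203 by edgeR) and with library sizes alone lower (−0.23, adjusted p = 0.0143 by edgeR). KLC3 overlaps the end of ERCC2 by 1684 bases on the opposite strand and was higher under THZ1, with means of 15.7 ± 0.980 and 24.97 ± 2.54 CPM (SD, n = 3 libraries of each treatment). Its part in the ERCC2 counts was not tested.

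Within a library, where the scaling has no part, ERCC2 gained on each of the other subunits. The log2 ratio of ERCC2 to ERCC3 counts was −0.04, −0.20 and −0.13 under DMSO and 0.34, 0.41 and 0.26 under THZ1. For all 8 other subunit genes tested, the ratio of ERCC2 to that gene was higher in every THZ1-treated library than in every DMSO-treated library. ERCC2 had the highest fold change of the 9 genes and is part of every ratio. The 8 ratios thus restate that order and are not independent. How often ratios of other gene pairs lack overlap was not computed. The difference between the mean log2 ratios ran from 0.35 against CDK7 to 1.19 against GTF2H5. ERCC2 held 18.0% ± 0.140 of the summed CPM of the 9 genes under DMSO and 26.3% ± 1.03 under THZ1 (SD, n = 3 each). Over the same libraries the share of CCNH went from 12.9% ± 0.728 to 9.44% ± 0.697 and the share of GTF2H1 from 16.2% ± 0.0578 to 13.1% ± 1.11.

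**Figure D2:**
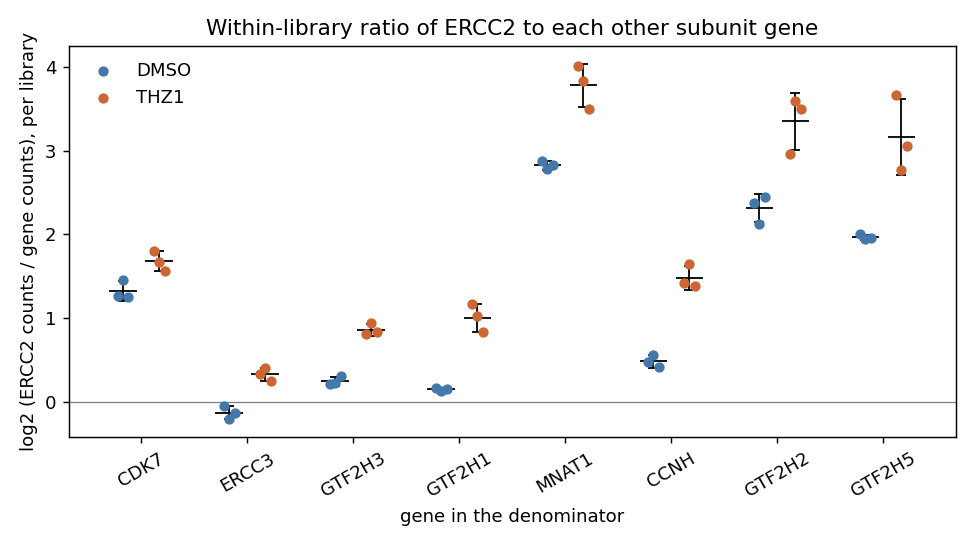
Log2 ratio of ERCC2 counts to the counts of each other subunit gene within a library, with a point per library, a line at the mean and error bars of 1 SD (n = 3 per treatment). For each of the 8 genes the THZ1-treated points lie above the DMSO-treated points, by 0.35 for CDK7 to 1.19 for GTF2H5 between the means.

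ERCC3, the translocase XPB that opens promoter DNA by pulling on it, lies on chromosome 2 from 128014866 to 128051742 on the minus strand. It had 66.6, 70.2 and 71.1 CPM under DMSO and 55.2, 48.7 and 49.2 CPM under THZ1. The groups did not overlap, and 73.7% of the DMSO level was left, a change of −0.44 ± 0.08 on the log2 scale (edgeR adjusted p = 1.9e-05). The size depended on the scaling, with −0.25 under upper quartile factors and −0.69 under library sizes alone. The log2 ratio of CDK7 to ERCC3 overlapped between the treatments, at −1.45 ± 0.186 under DMSO and −1.34 ± 0.109 under THZ1 (SD, n = 3 each).

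GTF2H5, the smallest subunit with a coding sequence of only 71 codons, stabilises TFIIH and stimulates ERCC3, and it lies on chromosome 6 from 158589382 to 158620376. It had 16.1, 15.9 and 16.7 CPM under DMSO and 5.52, 9.55 and 7.09 CPM under THZ1. GTF2H5 changed by −1.14 ± 0.17 on the log2 scale (edgeR adjusted p = 2.0e-07), the largest fall of the 9 genes with all libraries, and the THZ1-treated libraries spread widely. Without THZ1 replicate 1, its change of −0.97 was smaller than those of GTF2H2 (−1.28) and CCNH (−1.07). With each library left out in turn, its log2 fold change stayed between −1.38 and −0.97.

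GTF2H4, the other partner that stimulates ERCC3, had 1, 2 and 0 counts in the DMSO-treated libraries and 2, 2 and 2 counts in the THZ1-treated libraries. All libraries were under the floor of 3 counts, so GTF2H4 was not tested and no fold change can be given. The gene lies on chromosome 6 from 30875984 to 30881883 on the plus strand. In GENCODE 44, the long non-coding gene ENSG00000288473 covers 99.4% of its span on the same strand and runs on over VARS2, which starts 98 bases after the end of GTF2H4. The count table holds no row for ENSG00000288473, and the annotation used for the counting is not given in the sources used here. VARS2 itself had 868 to 878 counts under DMSO and 1240 to 1520 counts under THZ1. TFIIH needs this subunit in every cell, and whether reads of GTF2H4 were left out of the counting was not tested.

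The scaffold subunits GTF2H1, GTF2H2 and GTF2H3 were each lower under THZ1. GTF2H1, the subunit to which TFIIE and repair factors dock, lies on chromosome 11 from 18343842 to 18388592. It had 57.5, 55.6 and 58.2 CPM under DMSO and 31.0, 31.8 and 33.0 CPM under THZ1. Both groups were tight and far apart, at −0.84 ± 0.09 on the log2 scale (edgeR adjusted p = 5.4e-10).

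GTF2H3, a zinc finger partner of GTF2H2, lies on chromosome 12 from 124118286 to 124147151. It had 55.6, 52.4 and 52.4 CPM under DMSO and 39.7, 33.8 and 32.9 CPM under THZ1. The groups did not overlap, and GTF2H3 changed by −0.59 ± 0.09 on the log2 scale (edgeR adjusted p = 1.0e-06). The log2 ratio of GTF2H3 to ERCC3 differed by −0.15 in counts, with no overlap, and by −0.09 in FPKM, where the treatments overlapped.

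GTF2H2, the subunit that stimulates the ERCC2 helicase, lies on chromosome 5 from 70330843 to 70363516 in a duplicated region. It had 12.5, 14.0 and 11.9 CPM under DMSO and 8.94, 5.40 and 5.21 CPM under THZ1. THZ1 replicate 1 was the highest of its group but still below every DMSO-treated library, and GTF2H2 changed by −0.97 ± 0.18 on the log2 scale (edgeR adjusted p = 1.5e-05). Its copy GTF2H2C, on the same chromosome from 68856018 to 68891048, was lower as well (log2 fold change −0.75, adjusted p = 0.000119 by edgeR), as was the pseudogene GTF2H2B from 69711179 to 69743353 (−0.65, adjusted p = 0.0119 by edgeR).

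The values of GTF2H2 and its copies are uncertain, because their sequences are nearly the same. The coding sequences of GTF2H2 and GTF2H2C, both of 1185 bases, differ at 4 positions, which is an identity of 99.7%. These are A397G, A453G, G706C and G912A, counted from 1 at the start codon, with the base of GTF2H2 given before the position and that of GTF2H2C after it. The stretch around the difference nearest to the start codon, from base 377 to base 417, is shown with the base that differs in capitals, since only reads over such positions tell the copies apart:
GTF2H2: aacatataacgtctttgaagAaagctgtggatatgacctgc
GTF2H2C: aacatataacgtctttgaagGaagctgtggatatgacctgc
Of all windows of 100 bases in the GTF2H2 transcript ENST00000274400.10, 83.2% occur unchanged in a transcript of GTF2H2C or GTF2H2B, and of all windows of 150 bases 73.8%. With the counts of the 3 genes added up, an alternative chosen after seeing the data, the change was −0.81 ± 0.13 on the log2 scale (edgeR adjusted p = 1.1e-06). The processed pseudogenes CDK7P1 and CCNHP1 had no count in any library, and a count of 0 allows at most 0.253 CPM in a DMSO-treated and 0.415 CPM in a THZ1-treated library, by counting error only.

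**Figure D3:**
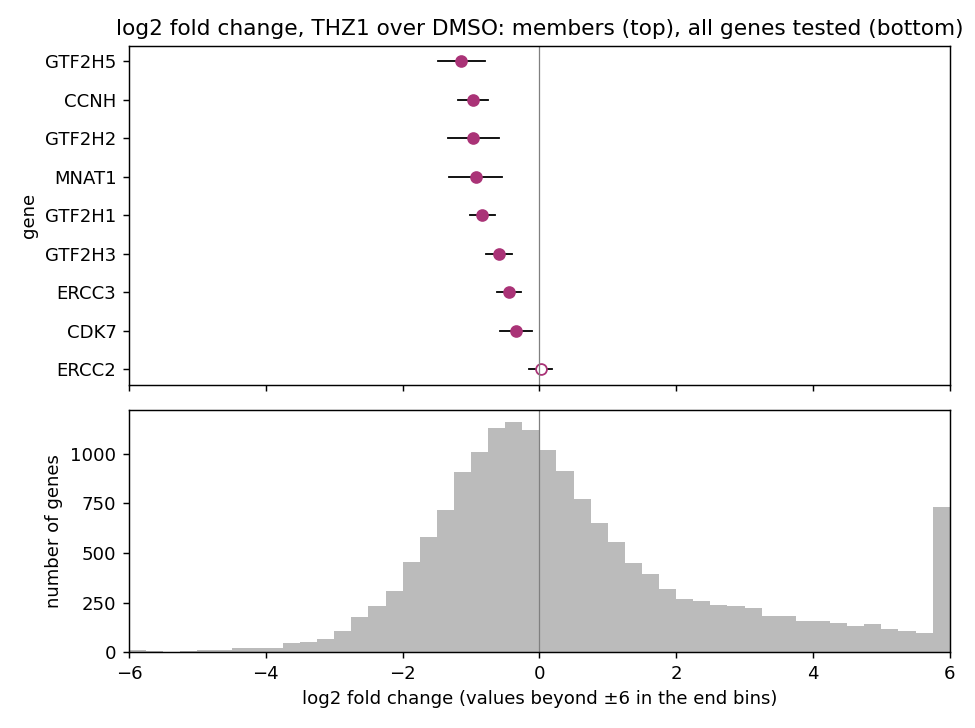
Top: log2 fold change (THZ1 over DMSO) of the 9 subunit genes tested with 95% intervals, filled where called at an adjusted p below 0.05 by edgeR. Bottom: number of genes by log2 fold change over the 16622 genes tested. The subunit genes lie between −1.14 and 0.02, inside the bulk of the genes tested.

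Within the distribution of all genes tested, the fold changes of the subunit genes were moderate. GTF2H5 was at the 19.5th percentile, CCNH at the 23.3rd and GTF2H2 at the 23.4th. MNAT1 was at the 24.4th, GTF2H1 at the 26.6th and GTF2H3 at the 33.1st percentile. ERCC3 followed at the 37.1st, CDK7 at the 39.9th and ERCC2 at the 49.8th percentile.

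Levels of different genes were compared on the deposited FPKM values, which are scaled to a length per gene and hold 7 of the 10 genes. Which length was taken is not given in the sources used here. Put in order of size, at least 90.1% of the values of any pair of libraries of a treatment lay within 0.01 of each other on the deposited log2 scale, and the highest value was the same. The sources used here name no normalization that would make them so, and the spread of FPKM values between libraries below is the spread after it. With DMSO, GTF2H3 was highest with 36.0 to 38.7 FPKM, followed by CDK7 with 25.7 to 31.5 FPKM and ERCC2 with 26.6 to 28.2 FPKM. CDK7 and ERCC2 were not separated, whereas GTF2H3 lay above both. ERCC3, GTF2H1 and CCNH had 22.3 to 24.0, 22.4 to 23.8 and 19.3 to 23.0 FPKM, and neighbours in this order overlapped. MNAT1 was far below the rest, with 7.12 to 7.59 FPKM.

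With THZ1, ERCC2 was highest with 23.6 to 28.1 FPKM, and its range overlapped that of GTF2H3, 21.1 to 25.8 FPKM, which in turn overlapped that of CDK7, 21.2 to 21.4 FPKM. ERCC3 (14.3 to 16.5 FPKM), GTF2H1 (10.7 to 11.6 FPKM), CCNH (7.78 to 10.4 FPKM) and MNAT1 (1.85 to 2.38 FPKM) followed without overlap. ERCC3, GTF2H1 and CCNH, which overlapped under DMSO, were thus apart under THZ1. GTF2H3 went the other way, since it lay above CDK7 and ERCC2 under DMSO and overlapped both under THZ1. On CPM per kb of annotated exons the order of the 7 genes was the same in each treatment. Under DMSO the FPKM values ran nearly in proportion to this scale, so the shared order is no independent check. CDK7 had means of 29.4 FPKM and 10.5 CPM per kb there, and CCNH of 21.4 FPKM and 7.61 CPM per kb. GTF2H2 and GTF2H5 had lower means than MNAT1, at 2.02 ± 0.173 and 1.85 ± 0.0477 CPM per kb under DMSO and 1.03 ± 0.332 and 0.843 ± 0.232 CPM per kb under THZ1 (SD, n = 3 each). The order depends on the length used. CCNH has 5981 bases of annotated exons but a transcript of 1280, against 3994 and 3327 for GTF2H3. Per base of transcript, CCNH (45.5 CPM under DMSO) would stand above GTF2H3 (53.4 CPM). The full order by transcript length was not computed. The place of GTF2H2 depends on the length as well. Its annotated exons cover 6330 bases and its transcript 1734, against 3877 and 2648 for MNAT1. The part of reads shared with its copies in this level was not tested.

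**Figure D4:**
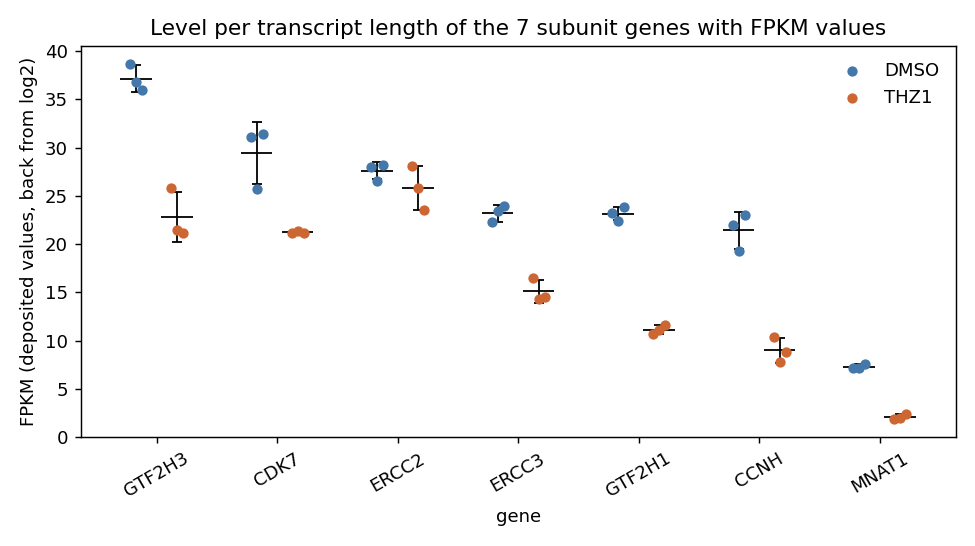
FPKM of the 7 subunit genes with deposited FPKM values, from highest to lowest under DMSO, with a point per library, a line at the mean and error bars of 1 SD (n = 3 per treatment). GTF2H3 is highest under DMSO and ERCC2 under THZ1, and MNAT1 is lowest in both.

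The subunit genes are spread over the genome, and several start next to another gene. The neighbours named here were chosen after their values were seen. GTF2H1 and HPS5 start 97 bases apart on opposite strands, and HPS5 was lower as well, with means of 34.0 ± 3.56 and 15.5 ± 1.71 CPM (SD, n = 3 libraries of each treatment) and a change of −1.13 beside −0.84 for GTF2H1. GTF2H3 and EIF2B1 overlap by 28 bases at their starts, and both were lower, with log2 fold changes of −0.59 and −0.35. GTF2H5 and SERAC1 start 70 bases apart, but SERAC1 was not called (log2 fold change −0.17, adjusted p = 0.432 by edgeR) while GTF2H5 was lower (−1.14). Across the 9 subunit genes, the Spearman correlation between gene span and log2 fold change was −0.32, near the −0.34 across 11929 protein-coding genes tested. This correlation is across genes, which are not independent, and it is given as a description.

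The promoters of all 10 genes were matched in RefSeq (GRCh38.p14, 250 bases before to 50 after the start), and in each the GENCODE transcript used here begins at that start. The motif CCGGAA, one form of the site bound by ETS factors, was searched on both strands, so that TTCCGG counts as well. Shorter and other forms of the site were not counted. It occurred in 6 of the 10 promoters, those of CCNH, MNAT1, GTF2H1, GTF2H2, GTF2H3 and ERCC3, and in 17.6% of 27305 RefSeq promoters, or 30.2% of the promoters of 9719 protein-coding genes tested. All 6 of these genes were lower under THZ1, as were CDK7 and GTF2H5 without it. The motif CACGTG, the E-box read by MYC among others, occurred in the promoters of CDK7 and GTF2H1 and in 10.2% of those of protein-coding genes tested. None of the 10 promoters held TATAAA on either strand, against 5.45% of those promoters. GGGCGG, the GC box, occurred in 7 of the 10 against 70.4%, and CCAAT in 2 of the 10, those of GTF2H4 and ERCC2, against 37.01%, both on either strand. The promoters of 2 lowered genes with CCGGAA on either strand, of CDK7 and of the uncalled ERCC2 are shown 5′ to 3′ on GRCh38.p14, with CCGGAA and TTCCGG in capitals:
GTF2H1, chr11:18322317-18322616, plus strand: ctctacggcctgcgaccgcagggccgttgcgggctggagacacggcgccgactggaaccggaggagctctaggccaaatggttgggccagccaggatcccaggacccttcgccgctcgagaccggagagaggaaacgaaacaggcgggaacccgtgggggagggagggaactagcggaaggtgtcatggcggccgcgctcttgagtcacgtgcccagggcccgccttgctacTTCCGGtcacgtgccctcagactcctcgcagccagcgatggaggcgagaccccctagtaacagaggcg
ERCC3, chr2:127294095-127294394, minus strand: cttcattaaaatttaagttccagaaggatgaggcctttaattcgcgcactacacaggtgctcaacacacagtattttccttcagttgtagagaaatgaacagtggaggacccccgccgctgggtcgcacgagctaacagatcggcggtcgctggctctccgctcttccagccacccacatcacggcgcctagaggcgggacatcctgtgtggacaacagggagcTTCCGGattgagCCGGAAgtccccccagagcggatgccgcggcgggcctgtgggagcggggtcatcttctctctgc
CDK7, chr5:69234636-69234935, plus strand: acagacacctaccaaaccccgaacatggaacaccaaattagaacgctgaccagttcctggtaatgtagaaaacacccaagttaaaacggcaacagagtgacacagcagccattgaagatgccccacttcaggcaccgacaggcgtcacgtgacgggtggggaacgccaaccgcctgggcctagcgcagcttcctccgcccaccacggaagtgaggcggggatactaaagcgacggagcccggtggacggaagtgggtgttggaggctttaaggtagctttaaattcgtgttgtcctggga
ERCC2, chr19:45370524-45370823, minus strand: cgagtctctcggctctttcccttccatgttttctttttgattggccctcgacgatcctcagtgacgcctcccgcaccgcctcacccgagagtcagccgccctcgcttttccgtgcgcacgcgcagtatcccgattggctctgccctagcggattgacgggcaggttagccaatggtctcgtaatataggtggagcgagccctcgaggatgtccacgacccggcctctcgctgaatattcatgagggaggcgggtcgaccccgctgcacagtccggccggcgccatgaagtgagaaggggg
A match describes these letters and not a bound site, and the motifs were chosen with the fold changes known.

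The genes that act with CAK and TFIIH were taken in 5 lists. Of 8 general factors of RNA polymerase II initiation, 4 were lower and 2 higher under THZ1 by edgeR, with a median log2 fold change of −0.59, beside the 41.1% lower and 43.5% higher of all genes tested. GTF2E1 and GTF2E2 form TFIIE, which recruits TFIIH to the promoter. GTF2E1 was lower by −1.79 on the log2 scale, with means of 20.01 ± 1.60 and 5.80 ± 1.30 CPM (SD, n = 3 libraries of each treatment), while GTF2E2 had 41.2 ± 2.91 and 36.6 ± 3.24 CPM and was not called (adjusted p = 0.104 by edgeR). GTF2A2, of TFIIA, had a log2 fold change of −1.66. The highest were GTF2F1, of TFIIF, at 1.16 and GTF2A1 at 0.58. As among the TFIIH subunits, partners of the same factor thus had unlike fold changes: −1.66 and 0.58 for TFIIA, and −1.01 for GTF2F2 against 1.16 for GTF2F1.

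Of 17 genes that act with TFIIH in nucleotide excision repair, 10 were lower and 5 higher under THZ1, with a median log2 fold change of −0.46. Of all protein-coding genes tested 47.6% were lower, so the share of lower genes was not far from the background. The lowest were RPA2, of the single-strand binding protein RPA, at −1.79 and ERCC6 (CSB), which senses stalled polymerase, at −1.58. The reads of ERCC6 were few, with means of 6.31 ± 0.592 and 2.10 ± 0.499 CPM (SD, n = 3 libraries of each treatment). XPC, which finds lesions and brings TFIIH to them, was the highest and rose by 1.53 on the log2 scale, with means of 17.6 ± 2.34 and 50.7 ± 5.80 CPM. ELOF1, an elongation factor of transcription-coupled repair, followed with 1.19.

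Of 11 genes for the other transcriptional CDKs and their cyclins, 8 were higher and 2 lower under THZ1, against 43.5% and 41.1% of all genes tested. Their median log2 fold change was 0.74, their difference from the CAK genes was not tested, and the 2 lower genes were those of the Mediator kinase, CDK8 at −1.34 and CCNC at −1.10. The highest were CDK11A at 5.75 and CDK11B at 1.99, which are near-identical neighbours whose reads could be split between them. In the deposited counts, CDK11A averaged 1.19 ± 0.548 CPM under DMSO against 64.6 ± 3.47 CPM under THZ1 (SD over 3 libraries), and CDK11B had 54.1 ± 4.61 and 215 ± 8.47 CPM.

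Of 6 genes for substrates of CDK7, all were called, where 84.5% of all genes tested were, with 4 cell cycle CDKs lower, at −1.56 for CDK4, −1.53 for CDK6, −1.23 for CDK2 and −1.20 for CDK1, and CDK9 (0.87) and POLR2A (2.90) higher. Of 4 factors that insert the iron-sulphur cluster on which ERCC2 depends, 3 were lower and 1 higher, against 41.1% and 43.5% of all genes tested. MMS19, the adaptor that delivers the cluster to ERCC2, was lower in every THZ1-treated library, with means of 135 ± 3.13 and 33.6 ± 3.33 CPM (SD over 3 libraries) and a change of −2.01 on the log2 scale (edgeR adjusted p = 7.5e-20). CIAO1 had a log2 fold change of −1.58 and CIAO3 of −0.76, whereas CIAO2B rose by 1.15 on the log2 scale, with means of 50.1 ± 6.97 and 111 ± 1.82 CPM.

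**Figure D5:**
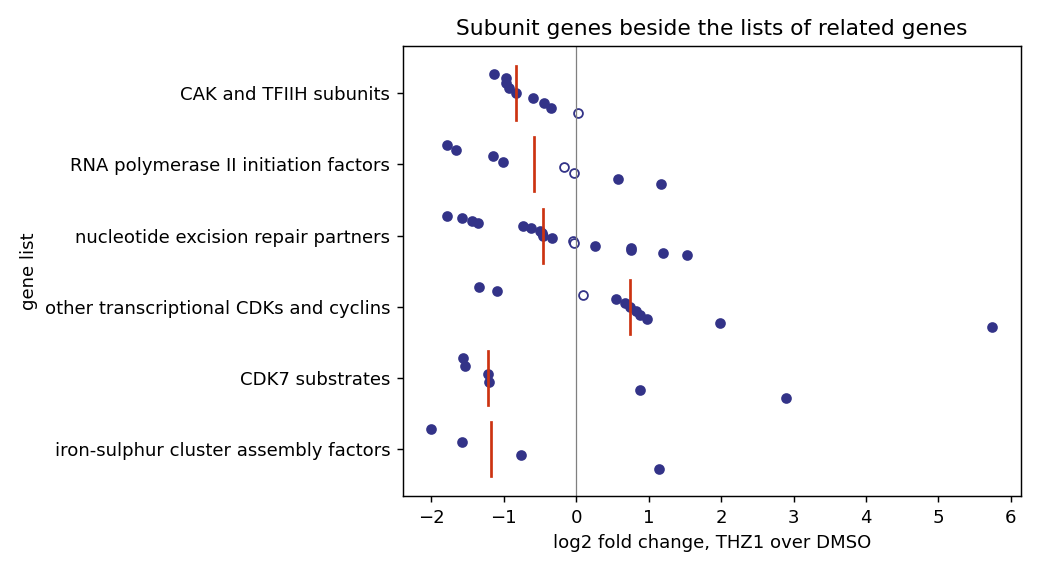
Log2 fold change (THZ1 over DMSO) of the 9 subunit genes tested and of the genes of the 5 related lists, with a point per gene, filled where called at an adjusted p below 0.05 by edgeR, and a red line at the median. The medians are −0.84 for the subunits, −0.59, −0.46, 0.74, −1.21 and −1.17 from top to bottom for the other lists, and the subunit genes span the narrowest range.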

How the data were processed

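RNA was isolated from NALM6 cells treated with DMSO or THZ1, and the deposited counts are the authors' raw htseq-count values per gene, not normalized, from filtered reads that STAR had placed on GRCh37. The submitters' processing notes also name cutadapt and RSEM. The annotation and strand setting are not given in the sources used here. A second table, deposited for 16730 genes, holds the authors' RSEM FPKM values on a log2 scale, read as log2(FPKM + 1) and taken back to FPKM. Their sorted values are nearly the same among the libraries of a treatment, by a step not given in the sources used here. Its columns of the authors' own p-values (p and FDR) and log2 fold changes were not used.

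Genes were filtered with filterByExpr (minimum count 10, minimum total 15), TMM factors were set, and a two-sided quasi-likelihood test in edgeR gave p-values, which were adjusted after Benjamini-Hochberg across every gene that passed the filter. Standard errors were derived from the fold change and the F statistic. Symbols and GRCh37 coordinates came from GENCODE 44 mapped to GRCh37. The subunit genes and the lists were chosen with earlier results of these data known. In the lists the 2 highest and 2 lowest genes were named, other genes named there being chosen after their values were seen, and the subunits were all named. Alternatives were other scalings, filters, DESeq2, a replicate block, each library left out, and limma on FPKM with a pseudocount of 1 or 0.1. A floor of 3 counts was used. Of the marker lists, 2 genes are not reported here and were left out of the sums. The pipeline was tested on simulated data with changes of both directions planted in a small part of the genes. Far more genes were called here, so that test does not cover the scaling of these libraries. The tools were edgeR 4.0.16, limma 3.58.1 and DESeq2 1.42.0 in R 4.3.3, and scipy 1.17.1 and pandas 2.3.3 in Python 3.11.15.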

Additional observations from a re-analysis of the deposited data

How the results depend on the processing

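The calls of CCNH, MNAT1, GTF2H1, GTF2H2, GTF2H3, GTF2H5 and ERCC3 kept their direction and significance under each alternative that gave them a value, and 6 to 9 subunit genes were lower. Of these 7, the size moved by over 1.5 times for MNAT1 with limma on FPKM (−1.44 and −1.78) and for ERCC3 with upper quartile factors (−0.25) and library sizes alone (−0.69). With limma on FPKM, 7 of the 10 genes had values, 6 of them lower. The log2 fold change of CDK7 was −0.59 with library sizes alone, −0.15 with upper quartile factors (adjusted p = 0.236 by edgeR), −0.28 with DESeq2 (adjusted p = 0.0681) and −0.21 where each library had to hold 10 counts of a gene (adjusted p = 0.0987 by edgeR). That of ERCC2 was 0.21 with upper quartile factors (the subunit gene then called higher, 1 gene), −0.23 with library sizes alone, −0.067 with no filter, −0.10 with limma on FPKM under either pseudocount and with no filter, and it ran between −0.047 (without THZ1 replicate 1) and 0.071 when single libraries were omitted, being negative without DMSO replicate 2 as well (−0.03). Upper quartile factors shifted the median log2 fold change of all genes by 0.19 and library sizes alone by −0.25. The cause of these changes was not tested.

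Of the repair list, 3 genes were higher with limma on FPKM, under either pseudocount and with no filter, against 5 by counts. On CPM per kb, MNAT1 held 3.89% with DMSO and 2.89% with THZ1 of the summed level of the 7 genes, against 4.30% and 1.93% in FPKM, and ERCC2 with THZ1 held 21.99% against 24.1%. The change in the log2 ratio of MNAT1 to ERCC3 was −0.49 in counts and −1.21 in FPKM.

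The labels give the treatments the same replicate numbers, but nothing says that a number marks a shared culture. With a replicate block, 7181 genes were higher and 6786 lower, 8 of them subunit genes, against 7224 and 6826 without it, and no subunit gene changed its call. The deviations of same-numbered libraries from their group means had correlations of −0.00400, 0.000969 and 0.0206. No pairing by number was seen, but such values cannot show that no culture was shared. MNAT1, GTF2H2 and GTF2H5 had at most 69 counts in any THZ1-treated library, and few counts limit their precision.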
